A study of Mus musculus with 2 samples.

Results

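The glycolytic enzyme genes *Eno1*, *Eno1b*, *Pkm*, *Ldha*, *Ldhb*, *Gapdh*, *Pgk1*, *Aldoa*, *Tpi1* and *Pgam1* were examined in RNA-seq libraries from mouse testes. These 10 genes, of 39695 gene entries in the series, were taken by gene symbol. They were chosen on their measured values in the same pair of libraries, with the low value of *Eno1b* already known, so every value below is a description. The series held 1 library from control testes and 1 from Bcas2F/-;Vasa-Cre testes, both from mice of 9 days. Control males carried 1 floxed and 1 deleted *Bcas2* allele and lacked *Vasa-Cre*. In Bcas2F/-;Vasa-Cre males the floxed allele was in addition removed by Cre recombinase, which *Vasa-Cre* expresses in germ cells only, whereas RNA came from whole testes, somatic cells included. BCAS2 is a component of a complex that takes part in pre-mRNA splicing. The strain label is C57BL/6, although a mixed background that includes it is described in the methods of the study, and how many mice entered each library was not given in the sources used here.

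Glycolysis converts glucose to pyruvate, and lactate dehydrogenase interconverts pyruvate and lactate. In the seminiferous tubules, Sertoli cells take up glucose and release lactate, which germ cells use as a fuel. Germ cells in meiosis and beyond come to express their own isozymes, encoded by *Pgk2*, *Ldhc* and *Gapdhs*, and many glycolytic genes have given rise to retrocopies, which are reverse-transcribed copies of their mRNA inserted elsewhere in the genome.

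Levels were deposited as RPKM, the reads counted on a gene divided by its length and by library size. Read counts, recovered from those values as whole numbers, correspond to scaling totals of 19918750 reads in the control and 19331687 in the Bcas2F/-;Vasa-Cre library. The paper gives larger totals of mapped reads, from paired-end sequencing. Whether a read counted here was a single read or a read pair was not given in the sources used here. Changes are log2 ratios of RPKM + 1 in Bcas2F/-;Vasa-Cre over control testes. Intervals are 95% Clopper-Pearson intervals of the log2 ratio of reads per library total, without the added 1, and cover counting error only. Each genotype had 1 library, so differences lack a check by replicates and are given without p-values. *Bcas2*, the targeted gene, had an RPKM of 39.5 in the control and 25.7 in the Bcas2F/-;Vasa-Cre library.

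*Eno1* encodes the ubiquitous enolase, the enzyme that converts 2-phosphoglycerate to phosphoenolpyruvate, and *Eno1b* is annotated as a retrogene with a near-identical transcript. In GRCm38, *Eno1* occupies chromosome 4 from 150236721 to 150248879 (forward strand), and its longest coding transcript in GENCODE M21 has 12 exons, whereas that of *Eno1b* has 2. The transcripts aligned over 1652 bases at 99.5% identity, with 9 mismatches and 0 gap bases, and 8 of the mismatches fell in the coding sequence of 1302 bases. The longest run without a mismatch was 750 bases. The stretch of *Eno1* below, bases 697 to 816 of its coding sequence as given in GENCODE M21, is shown because it holds 4 of the positions at which *Eno1b* differs, and these are in capitals. No window of 120 bases in the coding sequence held more such positions, so elsewhere in it the genes differ by as many letters or fewer.
Eno1 coding window: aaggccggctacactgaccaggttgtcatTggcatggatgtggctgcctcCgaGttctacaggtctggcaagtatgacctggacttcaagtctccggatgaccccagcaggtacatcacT

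*Eno1b*, on chromosome 18 from 48045335 to 48048412 on the forward strand, had an RPKM of 6.29 in the control, from 220 reads. In the Bcas2F/-;Vasa-Cre library it was listed at 0, with 0 reads. The log2 ratio was -2.87 with the added 1, and against a floor of 3 reads in the Bcas2F/-;Vasa-Cre library, equal to 0.0883 RPKM, *Eno1b* was at least 71.2-fold lower with the control value taken as measured. The interval of the read ratio is two-sided and also takes in the counting error of the control reads, and its upper bound of -5.84 on the log2 scale allows a smaller fold than that floor does. *Eno1b* was thus the 1 member detected in the control library only, and its ratio was the 5th lowest of the 14831 genes whose RPKM averaged 1 or more. It passed that minimum through the control library and was chosen with its low value known, so nothing is read from the rank. Of the 12243 entries with at least 100 reads in a library, 2 had 0 reads in the other, namely *Eno1b* and the processed pseudogene *Gm9855*, which had 350 reads in the control and was looked up after these values were seen. The 350 reads of *Gm9855* rest on a gene length chosen by closeness to annotated lengths, since its RPKM also allowed smaller counts.

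*Eno1* itself had an RPKM of 453 in the control and 463 in the Bcas2F/-;Vasa-Cre library, from 8429 and 8366 reads, a log2 ratio of 0.03 (-0.01 to 0.08). The parent gene was thus near 1:1 between the libraries where its retrocopy was not. Reads assigned to *Eno1b* made up 2.54% of the reads on the pair in the control. Added together, the pair had 8649 reads in the control and 8366 in the Bcas2F/-;Vasa-Cre library, a log2 ratio of reads of -0.00 (-0.05 to 0.04). With *Eno1b* at 2.54% of the pair, this sum follows *Eno1* and cannot show what became of the *Eno1b* reads. Summed over all 5 enolase genes, the RPKM was 480 in the control and 481 in the Bcas2F/-;Vasa-Cre library, and *Eno1* held 94.4% and 96.3% of it.

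The overlap in sequence between *Eno1* and *Eno1b* was measured by cutting the longest coding transcript of each member into windows and searching them, on both strands, for exact copies in transcripts of other genes. Of the windows of 50 bases in *Eno1*, 72.2% occurred in another gene, and 70.5% occurred in *Eno1b*. Of those in *Eno1b*, 84.5% occurred in another gene. With windows of 100 bases, the values were 59.0% for *Eno1* and 73.4% for *Eno1b*. How the authors' counting treated reads that fit more than 1 gene was not given in the sources used here, and how it bore on the *Eno1b* values was not tested. The processed pseudogene *Gm4735* matched *Eno1b* at 99.8% identity, and 66.0% of the 50-base windows of *Eno1b* occurred in it. It had 16 reads in the control and 7 in the Bcas2F/-;Vasa-Cre library. Whether the 220 control reads came from *Eno1b*, from *Eno1* or from another copy therefore cannot be told apart from gene-level values.

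**Figure D1:**
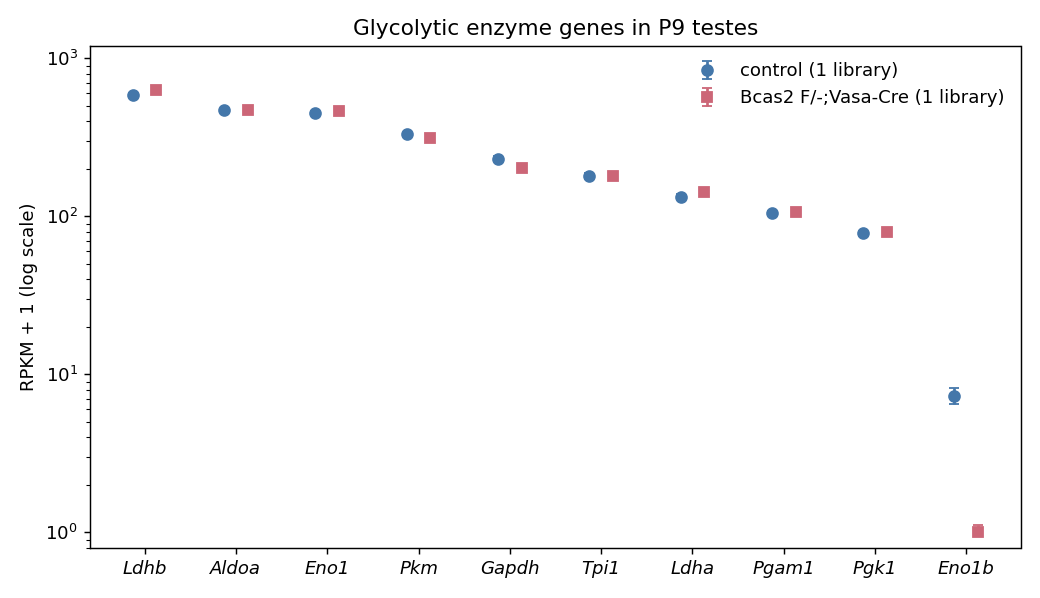
RPKM of the 10 glycolytic genes in the control and the Bcas2F/-;Vasa-Cre library, 1 point per library, on a logarithmic axis, with bars for the 95% counting interval. The 9 genes other than Eno1b lie close together in both libraries, between 77.0 and 633 RPKM, and Eno1b is at 6.29 in the control and listed at 0 in the Bcas2F/-;Vasa-Cre library.

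Beyond *Eno1b*, no member was past 1.5-fold. Over the 10 genes the median log2 ratio was 0.01, with 4 ratios below 0 and 6 above, of which *Tpi1* and *Pgam1* turned below 0 when the median of all genes was set to 0 and *Aldoa* turned above 0 when RPKM was rescaled. Of the 10, 1 gene was past 1.5-fold lower and 0 higher. Among all 14831 genes that averaged 1 RPKM or more, 1.69% were past 1.5-fold lower and 1.57% were past 1.5-fold higher, at a median of 0.02. Because the members were chosen on this contrast, nothing is read from their count against that background. The ratios of the 9 genes other than *Eno1b* ran from -0.20 in *Gapdh* to 0.11 in *Ldhb*, with a median of 0.01, and their pooled reads were 60176 in the control and 58330 in the Bcas2F/-;Vasa-Cre library, a log2 ratio of -0.00 (-0.02 to 0.01). The 10 genes together took 0.303% of the reads in the control and 0.302% in the Bcas2F/-;Vasa-Cre library.

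In the preparatory part of the pathway, *Aldoa*, the aldolase that splits fructose-1,6-bisphosphate (chromosome 7, 126795234 to 126800751, reverse strand), had an RPKM of 471 in the control and 468 in the Bcas2F/-;Vasa-Cre library, from 10081 and 9717 reads. Its log2 ratio was -0.01 (-0.05 to 0.03). *Tpi1*, the isomerase that interconverts the triose phosphates made by aldolase (chromosome 6, 124810586 to 124814296, reverse strand), had 179 and 180 RPKM, from 2608 and 2539 reads, and a log2 ratio of 0.00 (-0.07 to 0.08). Both libraries thus held these transcripts at nearly the same level, and both intervals included 0.

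*Gapdh*, which encodes the enzyme that oxidises glyceraldehyde-3-phosphate and lies on chromosome 6 from 125161715 to 125166467 on the reverse strand, had the lowest ratio of the 9. It had an RPKM of 231 from 3462 reads in the control and 202 from 2929 reads in the Bcas2F/-;Vasa-Cre library, a log2 ratio of -0.20 (-0.27 to -0.13). The difference was larger than counting error. Log2 ratios of the 1142 genes averaging 100 RPKM or more had an SD of 0.15, and 15.8% of these genes were farther from 0 than *Gapdh*. *Hprt*, which with *Gapdh* served as an internal control in the RT-PCR of the study, had 72.8 and 67.2 RPKM and a log2 ratio of -0.11 (-0.21 to -0.02).

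The next enzymes in the pathway gave values close to 1:1. *Pgk1*, on the X chromosome from 106187100 to 106203699 (forward strand), encodes the phosphoglycerate kinase of somatic cells and early germ cells and had 77.0 RPKM in the control and 78.2 in the Bcas2F/-;Vasa-Cre library, from 2209 and 2177 reads, a log2 ratio of 0.02 (-0.06 to 0.11). *Pgam1*, the phosphoglycerate mutase that precedes enolase (chromosome 19, 41911923 to 41918660, forward strand), had 104 and 105 RPKM (3807 and 3728 reads) and a log2 ratio of 0.01 (-0.05 to 0.08). *Pkm*, the pyruvate kinase that makes pyruvate and ATP (chromosome 9, 59656368 to 59679375, forward strand), had 330 and 312 RPKM (15972 and 14665 reads) and a log2 ratio of -0.08 (-0.11 to -0.05). *Pkm* had the most reads of all members, so its interval was narrow and excluded 0, although 55.7% of the genes at 100 RPKM or more had a ratio farther from 0.

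Both lactate dehydrogenase genes were slightly higher in the Bcas2F/-;Vasa-Cre library. *Ldhb*, the subunit B gene on chromosome 6 from 142490249 to 142507957 (reverse strand), had an RPKM of 588 in the control and 633 in the Bcas2F/-;Vasa-Cre library, a log2 ratio of 0.11 (0.07 to 0.14). *Ldha*, the subunit A gene on chromosome 7 from 46841475 to 46855627 (forward strand), had 132 and 142 RPKM (2458 and 2557 reads) and a log2 ratio of 0.10 (0.02 to 0.18). Subunit B transcripts exceeded subunit A transcripts by 4.45-fold in RPKM in the control and by 4.47-fold in the Bcas2F/-;Vasa-Cre library, so the balance of the subunits was nearly equal between the libraries. The reads of *Ldhb*, 11150 and 11652, rest on a gene length of 952 bases that was chosen by its closeness to annotated lengths, since the RPKM values alone also allowed smaller counts. The intervals of *Ldhb*, *Ldha*, *Pkm* and *Gapdh*, 4 of the 9 genes, excluded 0. The share of all genes with such an interval was not counted, so nothing is read from the 4 of 9. Of the genes at 100 RPKM or more, 43.2% had a ratio farther from 0 than *Ldhb*.

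**Figure D2:**
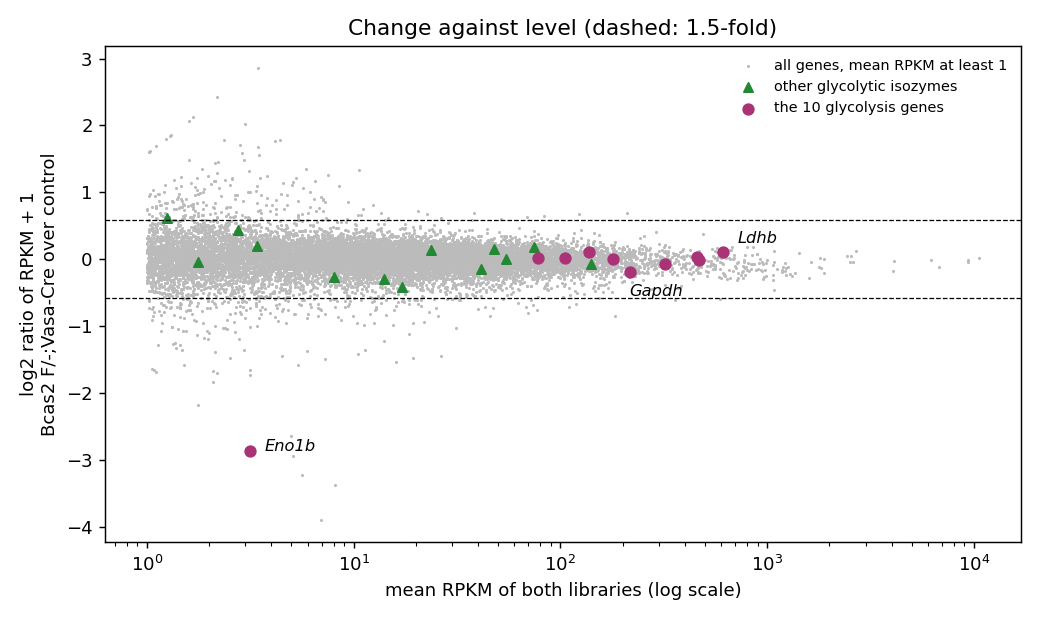
Log2 ratio of RPKM + 1 in Bcas2F/-;Vasa-Cre over control testes (vertical axis) against the mean RPKM of both libraries on a logarithmic axis. Shown are all genes averaging 1 RPKM or more (grey), the other glycolytic isozymes (triangles) and the member genes (coloured circles). Eno1b, Gapdh and Ldhb are named, and dashed lines mark 1.5-fold. Eno1b lies at -2.87, far below the cloud, and the 9 other members lie between -0.20 and 0.11 inside it.

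Ordered by RPKM, the members ran from *Ldhb* through *Aldoa*, *Eno1*, *Pkm*, *Gapdh*, *Tpi1*, *Ldha*, *Pgam1* and *Pgk1* to *Eno1b*, and the order was the same in both libraries. The closest neighbours were *Aldoa* and *Eno1*. Their counting intervals in RPKM, 462 to 481 and 443 to 463 in the control, overlapped, as they did in the Bcas2F/-;Vasa-Cre library, so this step of the order was within counting error. The order also depends on the gene length behind each RPKM value. The length implied by the values was 934 bases for *Eno1*, against 2027 bases for its longest coding transcript, but 2432 bases for *Pkm*, equal to its longest coding transcript. When reads were expressed per kilobase of the longest coding transcript and per 1000000 reads, a scale chosen after seeing the data, *Ldhb* stayed first at 429 in the control and *Pkm* followed at 330, ahead of *Aldoa* at 327 and *Eno1* at 209. On this scale the order differed between the libraries, since in the Bcas2F/-;Vasa-Cre library *Aldoa* at 324 was ahead of *Pkm* at 312, and *Pgam1* at 109 was ahead of *Gapdh* at 107. *Eno1b* stayed last at 6.17 in the control and 0 in the Bcas2F/-;Vasa-Cre library. The choice of length acts on both libraries alike and leaves the read ratios unchanged.

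At each step of glycolysis, 1 gene or a pair of genes supplied most of the RPKM, with shares that differed little between the libraries. *Aldoa* held 96.0% of the aldolase RPKM in the control and 96.9% in the Bcas2F/-;Vasa-Cre library, and *Pkm* held over 99% of the pyruvate kinase RPKM in both. *Gapdh* held 99.1% and 98.4% of the RPKM at its step. *Ldhb* held 81.5% and 81.6% of the lactate dehydrogenase RPKM. The hexokinase step was divided among isozymes, with *Hk2* at 60.1% and 60.7% and *Hk1* at 38.6% and 38.4% of the hexokinase RPKM.

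**Figure D3:**
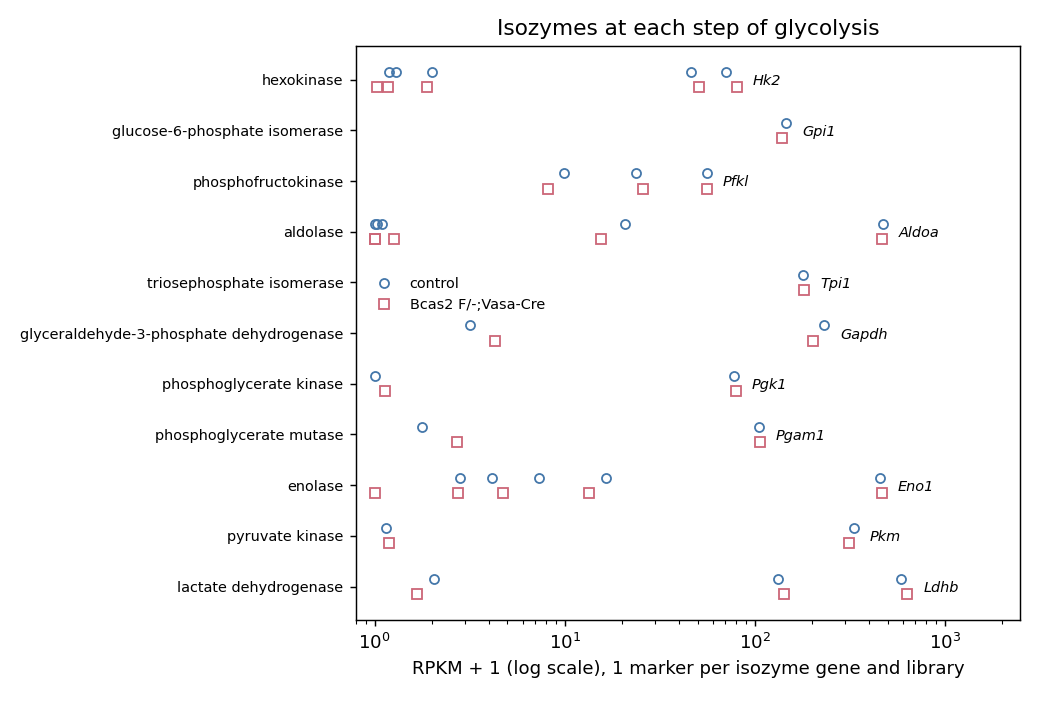
RPKM + 1 of the isozyme genes at each glycolytic step, on a logarithmic horizontal axis. Each gene has 1 open marker for the control and 1 for the Bcas2F/-;Vasa-Cre library, and the most abundant gene of each step is named. From aldolase on, a member gene held more than 80% of the summed RPKM of each step, such as 81.5% and 81.6% for Ldhb at lactate dehydrogenase.

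The isozymes of later germ cells had few reads, at most 75 in a library. *Pgk2*, the retrogene-encoded kinase of meiotic and later germ cells, was listed at 0 in the control and had 0.13 RPKM from 4 reads in the Bcas2F/-;Vasa-Cre library. *Ldhc*, the testis-specific lactate dehydrogenase, had 1.05 and 0.67 RPKM from 21 and 13 reads. *Gapdhs*, the sperm isozyme of *Gapdh*, had 2.19 and 3.32 RPKM (51 and 75 reads) and a log2 ratio of 0.44 (0.07 to 1.14). At the counts used, the interval of *Gapdhs* excluded 0 and that of *Ldhc*, -1.77 to 0.42, did not. The RPKM values of *Gapdhs* and *Pgk2* also allowed smaller counts, and those given were chosen by closeness to annotated gene lengths. Smaller counts would widen the interval of *Gapdhs*, so nothing is read from its excluding 0.

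Of the other glycolytic isozymes, 22 of 23 were listed and 13 had a mean RPKM of at least 1, with a median log2 ratio of -0.00 and 0 past 1.5-fold lower. The 1 gene past 1.5-fold higher was *Pgam2*, the muscle mutase, at 0.777 RPKM from 13 reads in the control and 1.72 from 28 reads in the Bcas2F/-;Vasa-Cre library. The most abundant was *Gpi1*, the glucose-6-phosphate isomerase, at 145 and 138 RPKM. *Gapdhs*, with the value above, had the next largest ratio of the list. The summed RPKM of the list was 435 in the control and 433 in the Bcas2F/-;Vasa-Cre library, so neither the members nor the rest of the pathway differed much in total.

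The transport of glucose and lactate was represented by 10 genes, of which 7 had a mean RPKM of at least 1 and 0 were past 1.5-fold in either direction, at a median of -0.07. *Bsg*, the chaperone of the monocarboxylate transporters, was the most abundant at 310 RPKM in the control and 296 in the Bcas2F/-;Vasa-Cre library. *Slc16a1*, a monocarboxylate transporter that carries lactate, had 30.1 and 26.0 RPKM and a log2 ratio of -0.21 (-0.30 to -0.13). *Slc2a3*, a glucose transporter of high affinity, had 16.5 and 14.9 RPKM and a log2 ratio of -0.14 (-0.33 to 0.03). Of these 3 genes the intervals of *Bsg* and *Slc16a1* excluded 0.

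Regulators of glycolysis and of pyruvate entry into mitochondria were all expressed, with 20 of 20 averaging 1 RPKM or more, a median log2 ratio of 0.02 and 0 past 1.5-fold. *Hif1a*, the oxygen-regulated transcription factor that acts on many glycolytic genes, had 81.6 RPKM in the control and 98.5 in the Bcas2F/-;Vasa-Cre library, a log2 ratio of 0.27 (0.21 to 0.33). *Pfkfb2*, which sets the level of the activator fructose-2,6-bisphosphate, had a log2 ratio of 0.23 (0.12 to 0.38). *Pdk3*, a kinase that inhibits pyruvate dehydrogenase, was the most abundant of the list at 111 and 104 RPKM. The highest and lowest ratios of the regulators, 0.27 and -0.17, were thus both within 1.5-fold.

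Branches of the pathway were examined in the same way. Of 9 pentose phosphate genes, 8 had a mean RPKM of at least 1, with a median log2 ratio of -0.10, 7 of the 8 below 0 and 0 past 1.5-fold. *Taldo1*, the transaldolase, had 156 and 141 RPKM and a log2 ratio of -0.15 (-0.23 to -0.07), and *Tktl1*, a transketolase-like gene, had 37.4 and 30.5 RPKM and a log2 ratio of -0.29 (-0.42 to -0.17). *Rpia*, the ribose-5-phosphate isomerase, had a log2 ratio of -0.18 (-0.30 to -0.08). Of 7 gluconeogenesis genes, 3 had a mean RPKM of at least 1, at a median of 0.00, among them *G6pc3* at 30.5 and 31.7 RPKM and *Pck2* at 11.4 and 10.9 RPKM. Of the 8 pentose phosphate genes, 4 had an interval that excluded 0 at the counts used, and all 4 were below 0. How many of all genes had an interval that excluded 0 was not counted, so nothing is read from these 4. Among all genes averaging 1 RPKM or more, 6873 of 14831 were below 0.

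Copies of the members were sought among annotated pseudogenes and retrogenes whose transcripts matched a member at 90% identity or more over at least 50% of their length. There were 225 such copies, *Eno1b* included, of which 182 were listed in the data, 84 had a value above 0 and 11 had a mean RPKM of at least 1. *Gapdh* had 185 of them, 72 with a value above 0. The most abundant copy of all was *Gm12033*, a processed pseudogene on chromosome 11 from 20335012 to 20336013, whose transcript matched that of *Gapdh* over 1002 bases at 99.9% identity with 1 mismatch. The stretches below, of 61 bases each from GENCODE M21, show that mismatch in capitals, T504C, counted from the first base of the *Gapdh* start codon, with the *Gapdh* base first.
Gapdh: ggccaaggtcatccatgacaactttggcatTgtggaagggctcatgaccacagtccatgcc
Gm12033: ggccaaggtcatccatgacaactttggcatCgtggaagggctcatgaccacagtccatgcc

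*Gm12033* had an RPKM of 14.3 in the control and 12.1 in the Bcas2F/-;Vasa-Cre library, from 322 and 264 reads, a log2 ratio of -0.23, close to that of *Gapdh*. *Gm13394*, another copy of *Gapdh*, had 4.29 and 4.09 RPKM (93 and 86 reads) and a log2 ratio of -0.06. *Eno1b* was the copy with the next highest mean, 3.14 RPKM. Unlike *Eno1b*, both *Gapdh* copies were thus detected in both libraries. Together the 160 listed copies of *Gapdh* had 925 reads in the control and 844 in the Bcas2F/-;Vasa-Cre library, a log2 ratio of reads of -0.09 (-0.23 to 0.05). *Gapdh* with these copies had 4387 and 3773 reads, a log2 ratio of -0.17 (-0.24 to -0.11). The part of read assignment between copies in the lower value of *Gapdh* was not tested.

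The share of windows that also occurred in other genes differed widely between members. With windows of 100 bases it was highest in *Gapdh*, at 78.0%, and stood at 67.0% in *Pgk1*, 59.0% in *Eno1* and 39.7% in *Pgam1*. It was 9.8% in *Pkm*, 8.8% in *Ldhb*, 1.3% in *Ldha*, 0.8% in *Tpi1* and 0.0% in *Aldoa*. Values for *Gapdh*, *Pgk1*, *Eno1*, *Eno1b* and *Pgam1* are therefore uncertain where the counting could have divided reads between copies, whereas for *Aldoa*, *Tpi1* and *Ldha* at most 1.3% of these windows occurred elsewhere. With windows of 50 bases the share was larger also in these 3 genes, at 13.5% in *Aldoa*, 7.5% in *Tpi1* and 16.6% in *Ldha*.

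**Figure D4:**
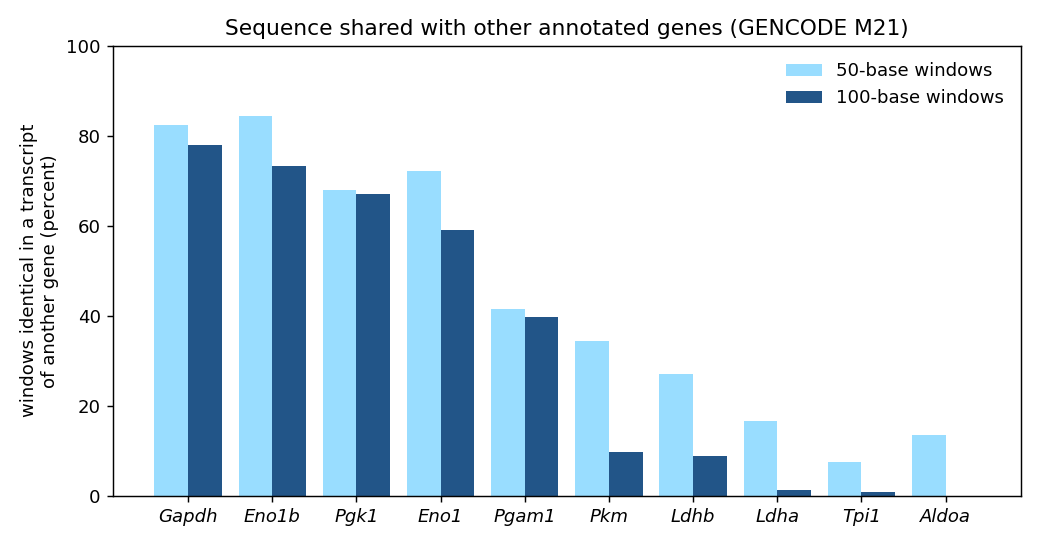
Percent of windows of 50 and 100 bases in the longest coding transcript of each glycolytic gene that occur exactly in a transcript of another gene (vertical axis), 1 pair of bars per gene. With 100 bases the share runs from 0.0% in Aldoa to 78.0% in Gapdh, and it is 73.4% in Eno1b and 59.0% in Eno1.

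Marker genes of testis cell types differed between the libraries beside these values. The 8 spermatogonia markers were all lower in the Bcas2F/-;Vasa-Cre library, with a median log2 ratio of -0.38 and a summed RPKM of 750 in the control and 578 in the Bcas2F/-;Vasa-Cre library. *Uchl1*, the most abundant of them, had 279 and 224 RPKM. *Stra8*, which germ cells express on entry into meiosis, had a log2 ratio of -0.61, and *Sohlh1*, a transcription factor of spermatogonia, -0.46. The 4 markers of meiotic prophase I were lower as well, at a median of -0.47 and summed RPKM of 84.1 and 54.2, with *Smc1b*, a meiotic cohesin, at a log2 ratio of -1.11. Of the synaptonemal complex genes, *Sycp1* had a log2 ratio of -0.56 and *Sycp3* had 24.1 and 19.4 RPKM. By replicated RT-PCR at the same age, the paper reported similar levels of *Ddx4*, *Sohlh1*, *Kit*, *Dazl* and *Stra8* in both genotypes. In the same RT-PCR it reported lower *Dmc1*, *Sycp1*, *Sycp3* and *Smc1b*. The lower spermatogonia markers here rest on 1 library per genotype. The 9 glycolytic genes other than *Eno1b* had a median of 0.01, with 3 below 0, and the lowest of them, *Gapdh* at -0.20, lay within the range of the spermatogonia markers, -0.61 to -0.19.

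Of 8 Sertoli cell markers, 7 had a mean RPKM of at least 1 and all 7 were above 0, at a median log2 ratio of 0.11. Those of *Fshr* at 0.00, *Gata4* at 0.01 and *Cldn11* at 0.02 had intervals that included 0. The intervals of *Sox9*, *Amh*, *Wt1* and *Inha* excluded 0. The summed RPKM of the Sertoli cell markers was 985 in the control and 1092 in the Bcas2F/-;Vasa-Cre library. *Inha*, which encodes the inhibin alpha subunit, was the most abundant at 296 and 345 RPKM. *Amh*, anti-Müllerian hormone, had the highest log2 ratio of 0.36 and the transcription factor gene *Sox9* 0.29, whereas *Rhox5* was listed at 0 in both libraries. Leydig cell markers had a median of 0.20, with summed RPKM of 387 and 431. Among these steroidogenic genes, *Cyp17a1* had a log2 ratio of 0.68, *Star* 0.51 and the most abundant, *Hsd3b1*, -0.17. Peritubular myoid markers had a median of -0.01 and summed RPKM of 501 and 469, with *Acta2*, smooth muscle actin, at -0.13 and *Cnn1*, a calponin, at 0.09. In bulk RNA, fewer cells of a type and less RNA per cell cannot be told apart, and the part of cell composition in the values of the glycolytic genes was not tested.

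Markers of spermatids, a cell type not formed at this age, had a summed RPKM of 1.52 in the control and 1.47 in the Bcas2F/-;Vasa-Cre library. Almost all of it was *Tnp1*, a transition protein, at 1.32 and 1.36 RPKM, and the protamine genes *Prm1* and *Prm2* were each at 0 in 1 of the libraries. Blood cell markers differed more. The 6 neutrophil markers had a summed RPKM of 26.5 in the control and 3.28 in the Bcas2F/-;Vasa-Cre library. Of these, 4 averaged 1 RPKM or more, with a median log2 ratio of -2.11, against -1.19 over all 6, and all 4 were past 1.5-fold lower. The values of *S100a9*, *S100a8* and *Ngp* were under 1 RPKM in the Bcas2F/-;Vasa-Cre library, so these genes passed that minimum through the control library. The 4 were *S100a9* at a log2 ratio of -2.95, *S100a8* at -2.64, *Ngp* at -1.58 and *Camp* at -0.79, genes of granule and cytosolic proteins of neutrophils. The 6 of 7 erythroid markers that averaged 1 RPKM or more had a median of -0.32, with *Slc4a1*, the band 3 anion exchanger of red cells, at 15.7 and 0.607 RPKM and *Hbb-bt*, a beta globin, at 42.4 and 20.3 RPKM. The most abundant, the beta globin *Hbb-bs*, was at 551 and 596 RPKM, and all 7 summed to 981 and 944 RPKM. The medians of both lists were below 0, as were those of the spermatogonia, meiotic prophase I, peritubular myoid, endothelial and macrophage lists. Those of the Sertoli cell, Leydig cell and spermatid lists, the last from 1 gene, were above 0. The part of any of these cell types in the value of *Eno1b* was not tested. Endothelial markers had a median of -0.10, with the receptor gene *Tek* at -0.22, *Pecam1* at -0.13 and the cadherin gene *Cdh5* the most abundant at 18.7 and 17.9 RPKM. Macrophage markers had a median of -0.16, with *Csf1r* at -0.23, *Adgre1* at -0.19 and the lectin *Mrc1* the most abundant at 12.3 and 13.2 RPKM.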

How the data were processed

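Per the methods of the study, the authors aligned paired-end reads and counted them per gene with HTSeq. The submitters' processing notes name TopHat2 2.0.9 and mm10. The annotation release was not given in the sources used here. The authors deposited RPKM values, without counts, for 39695 entries and 2 libraries, of which 37606 matched GENCODE M21 (GRCm38) by Ensembl identifier.

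Whole reads and gene lengths were recovered from the steps of the RPKM values and came out whole for 99.7% of 22040 genes above 0 in both libraries (length tolerance 1e-05 bases). For some genes the values also allowed smaller whole counts, among them *Ldhb*, *Gapdhs*, *Pgk2*, *Tktl1*, *Pgd*, *Gm12033* and *Gm9855*. For these the count whose gene length was closest to annotated lengths was taken. Smaller counts would leave the ratio unchanged but widen its interval. The recovery was tested on simulated data. Log2 ratios used a pseudocount of 1 RPKM, which understates changes of low genes, and a minimum mean RPKM of 1. No test between genotypes was possible. Copies were found with BLAST+ 2.17.0. Other work used Python 3.11.15, numpy 2.4.6, pandas 2.3.3, scipy 1.17.1 and matplotlib 3.10.9.

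The members and gene lists were chosen with earlier results of these data known. Named were all members, testis isozymes, any list gene past 1.5-fold, the most abundant gene and the 2 with the largest ratios of each list, the 3 most abundant copies and *Bcas2*. *Hprt*, *Gm9855*, *Gm4735*, *Hk1*, *Hk2* and the markers at 0 were added after values were seen. So were *Pgd*, the Sertoli cell markers *Fshr*, *Gata4*, *Cldn11* and *Wt1*, and the genes named from the RT-PCR of the study. Alternatives were pseudocounts of 0.1 and 0.01, centring on the median ratio, rescaling each library to a summed RPKM of 1000000, other filters, and *Eno1* and *Eno1b* reads added together.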

Additional observations from a re-analysis of the deposited data

How the results depend on the processing

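With a pseudocount of 0.1 or 0.01 in place of 1, the log2 ratio of *Eno1b* was -5.997 or -9.30, since its Bcas2F/-;Vasa-Cre value was 0, and with RPKM rescaled to a sum of 1000000 it was -3.44. The number of all genes past 1.5-fold was 457 lower and 454 higher at a pseudocount of 0.1, 485 and 491 at 0.01, 468 and 511 without a filter, 104 and 46 at a mean RPKM of at least 5, and 356 and 434 after rescaling. The members held 0 genes past 1.5-fold lower at a mean RPKM of at least 5, which left *Eno1b* out. They also held 0 when the reads of *Eno1* and *Eno1b* were added together, a sum made up mostly of *Eno1* reads. The ratios of the 9 other genes stayed between -0.21 and 0.13 under every change of pseudocount or scaling run. Single genes outside the members were not recomputed. Of the ratios and medians recomputed, 10 turned sign under an alternative, all of them within 0.0638 of 0 before and after. Among them were *Tpi1* (-0.01), *Pgam1* (-0.00) and the members' median (-0.01) after centring, *Aldoa* (0.02) after rescaling, and the pooled *Eno1* and *Eno1b* ratio (0.01) from summed RPKM. The neutrophil median was -3.32 and -3.60 at pseudocounts of 0.1 and 0.01 and -1.19 without a filter. No paired analysis was possible because each genotype had 1 library. The *Eno1b* values rest on 220 and 0 reads. Animal and library variation could not be measured.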
